A study of Mus musculus with 8 samples.

Results

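The 50 genes described here carry out mitosis. They comprise mitotic cyclins and kinases, the spindle checkpoint, the kinetochore, the chromosomal passenger complex, mitotic kinesins, spindle proteins, cytokinesis factors and chromosome proteins. They were chosen by name from this role, and each gene's value is that of the brightest probe set, by its mean over the 8 arrays, among those annotated to that gene alone. Such a probe set was found for 49 of the 50 genes, out of 18194 genes on the array, and all 49 were among the 8174 genes tested. Cyclin B1 (Ccnb1) was not analysed here.

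The arrays measured mouse CD11b+Gr-1+ myeloid cells, a surface phenotype shared by granulocytes and monocytes at several stages of maturation, in 4 groups with 2 technical arrays each. All mice were C57BL/6J and carried the HDC-EGFP reporter of histidine decarboxylase (Hdc, the enzyme that makes histamine), controls included. The marrow groups held HDC-expressing cells from 3 HDC-EGFP mice (here wild type) and from 3 HDC-EGFP/HDC-KO mice aged 3 to 4 months, and whether their RNA was pooled is not stated. The tumor groups, which the series text calls WT and HDC-KO, were pooled from 10 to 12 colon tumors of 5 HDC-EGFP mice and of 5 mice labelled HDC-EGFP/HDC-KO, 7 months old, which had received a single dose of azoxymethane followed by 10 days of dextran sodium sulfate, 22 to 24 weeks before collection. No EGFP gate is named for the tumor cells, so the sorts of tumor and marrow cells may differ in more than their tissue. Each group is called a pool below. The standard errors and p-values below measure the spread between technical arrays, estimated for each gene over all 4 groups, and not between mice.

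Mitosis starts when cyclin-dependent kinase 1, bound to cyclins A and B, drives chromosome condensation and spindle assembly. Kinetochores then attach each chromosome to spindle microtubules, and the checkpoint holds back the anaphase-promoting complex (APC/C) until all are attached, after which kinesins, the passenger complex and the contractile ring separate the daughter cells. In the myeloid lineage, division takes place in granulocyte precursors in the marrow, and segmented neutrophils no longer divide.

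The promoters of many mitosis genes hold letters known to mediate their transcription late in the cell cycle: the cell cycle genes homology region, TTTGAA, and the CCAAT box bound by NF-Y. Windows of 250 bases before to 50 bases after the start, from RefSeq on GRCm38.p6, were matched by symbol for 42 of the 50 genes. Both motifs were searched on both strands, and the 2 motifs can share an end base. TTTGAA occurred in the windows of 31 of the 42 genes (73.8%), against 20.2% of 27025 genes with a window, and within 50 bases of the start in 28 (66.7%), against 5.72%. CCAAT occurred in 32 (76.2%), against 41.1%. Both motifs occurred in 26 (61.9%), against 7.97%. The windows of 4 genes that hold both motifs and lie among those with the largest tumor differences are shown, 5′ to 3′ on the gene's strand, with the motif letters of either strand in capitals:
Cenpf, chr1:189688037-189688336, minus strand: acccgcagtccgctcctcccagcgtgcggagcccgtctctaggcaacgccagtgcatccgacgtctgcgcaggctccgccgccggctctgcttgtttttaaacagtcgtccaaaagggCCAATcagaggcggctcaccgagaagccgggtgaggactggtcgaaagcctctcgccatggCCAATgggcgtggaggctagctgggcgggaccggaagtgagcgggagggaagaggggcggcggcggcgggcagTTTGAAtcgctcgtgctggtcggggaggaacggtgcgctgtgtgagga
Spc25, chr2:69206164-69206463, minus strand: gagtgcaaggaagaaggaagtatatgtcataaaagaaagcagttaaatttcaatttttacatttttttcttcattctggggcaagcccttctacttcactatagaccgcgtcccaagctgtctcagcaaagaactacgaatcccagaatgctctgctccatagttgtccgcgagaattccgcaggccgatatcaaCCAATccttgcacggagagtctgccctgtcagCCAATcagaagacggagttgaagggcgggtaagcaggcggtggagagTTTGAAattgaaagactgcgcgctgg
Kif11, chr19:37376132-37376431, plus strand: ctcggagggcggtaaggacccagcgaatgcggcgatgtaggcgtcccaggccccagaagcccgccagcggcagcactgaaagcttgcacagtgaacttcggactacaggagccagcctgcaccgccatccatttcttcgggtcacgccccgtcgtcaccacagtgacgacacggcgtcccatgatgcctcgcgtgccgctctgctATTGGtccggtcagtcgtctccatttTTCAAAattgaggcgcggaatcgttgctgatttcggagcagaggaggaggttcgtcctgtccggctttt
Aspm, chr1:139454523-139454822, plus strand: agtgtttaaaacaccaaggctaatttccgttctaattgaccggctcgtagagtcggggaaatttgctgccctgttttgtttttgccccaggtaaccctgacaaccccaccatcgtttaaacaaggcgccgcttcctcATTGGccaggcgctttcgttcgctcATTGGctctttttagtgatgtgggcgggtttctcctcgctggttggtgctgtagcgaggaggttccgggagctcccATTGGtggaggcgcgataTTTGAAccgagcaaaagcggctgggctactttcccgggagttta
In Cenpf the TTTGAA began 3 bases after the start, in Spc25 25 and in Aspm 7 bases after it, and in Kif11 the reverse complement began 19 bases before it. In all 4 a CCAAT box lay upstream of the TTTGAA. Melk, Mad2l1, Nuf2, Birc5 and Nusap1 held neither motif in these windows, which says only that the letters are not there. The median fitted log2 difference between the tumor pools, described below, was -3.53 for 28 tested genes with TTTGAA within 50 bases of the start. It was -3.35 for 13 without it and -3.05 for the 5 genes with neither motif. A link between the motifs and these differences was not tested.

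Hdc itself was read first as a check of the labels. It stood at 13.14 and 13.21 (log2) on the wild-type marrow arrays and at 9.79 and 9.87 on the HDC-KO marrow arrays, a 10.2-fold lower level (limma, adjusted p = 1.47e-06). In tumors it stood at 13.25 and 13.23 on the wild-type arrays, while the arrays labelled HDC-KO gave 13.02 and 13.03, a difference of -0.21 ± 0.055 (SE). A second probe set of Hdc gave the same picture, with 11.96 and 12.01 in that pool. Hdc therefore goes against the label of that pool, which is called the tumor pool labelled HDC-KO throughout, and every direction drawn from it below rests on its label only. The technical arrays of each pool correlated at 0.9955 to 0.9981 over all tested genes. For the mitosis genes, the median log2 gap between the arrays of a pool was 0.213 in the tumor pool labelled HDC-KO. It was 0.0489 to 0.0669 in the other pools. Because the spread of a gene is estimated over all pools, this wider gap enters the standard errors and p-values of every comparison, also that between the marrow pools.

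The mitosis genes had similar median levels in 3 of the 4 pools and a far lower median in the tumor pool labelled HDC-KO. Their median log2 value was 9.88 and 9.87 on the wild-type marrow arrays, 9.82 and 9.83 on the HDC-KO marrow arrays, 9.63 and 9.60 on the wild-type tumor arrays, and 5.86 and 5.66 on the arrays of the tumor pool labelled HDC-KO. The lowest value of any of the 49 genes on the 6 arrays of the first 3 pools was 6.2 (Dlgap5), so none entered the test through a single pool. On the arrays of the tumor pool labelled HDC-KO, 20 and 17 genes lay under log2 5, the level taken as background here. All 49 genes were lower on both of its arrays than on both wild-type tumor arrays, as were 41.2% of all tested genes.

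**Figure D1:**
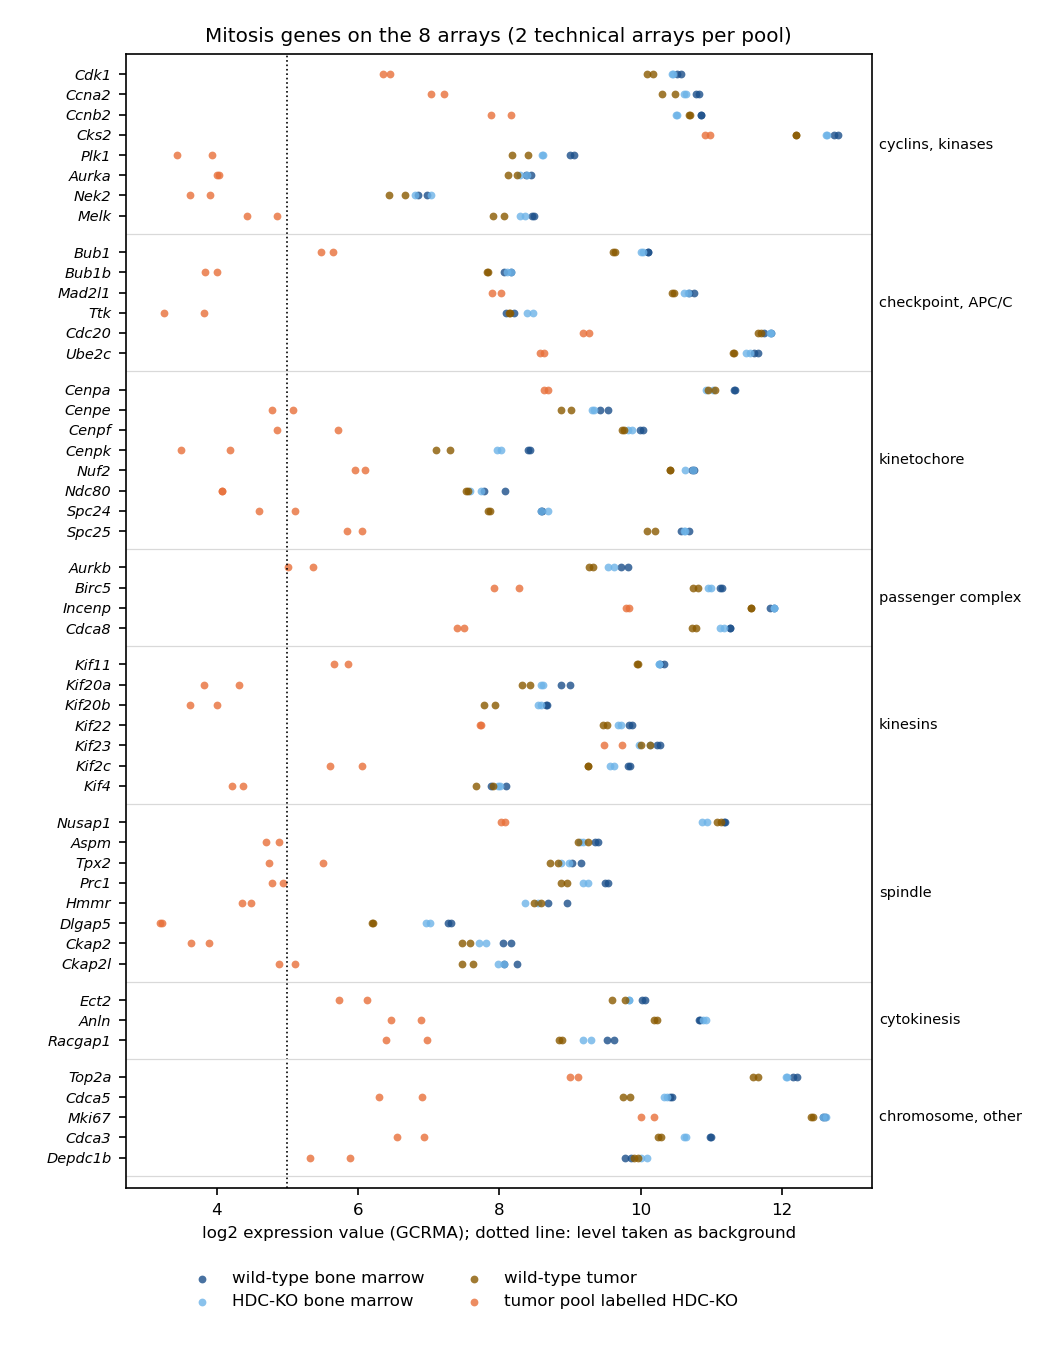
Log2 expression value (x axis) of the 49 mitosis genes (y axis, grouped by role) on each of the 8 arrays, 1 point per array coloured by pool, with log2 5 as a dotted line. The points of the tumor pool labelled HDC-KO stand apart to the left for every gene, with medians of 5.86 and 5.66, except that those of Kif23 come close to the other pools.

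In tumors, 48 of the 49 genes were called lower in the pool labelled HDC-KO than in the wild-type pool and none higher. A gene was called when its limma p, adjusted by Benjamini and Hochberg over all 8174 genes, was under 0.05 and its difference reached 2-fold. By this rule 26.0% of all tested genes were called, 10.5% lower and 15.5% higher. The median difference of the 49 genes was -3.46 on the log2 scale, or -3.05 with pool means under 5 raised to 5, beside a median of 0.03 over all tested genes. Of the 48, 29 had both pool means above background and fell 2.38-fold to 22.1-fold, with a median of 9.63-fold. For the other 19, the mean in the pool labelled HDC-KO lay under background, and the fold is a lower bound, from at least 2.3-fold to at least 18.1-fold. Log2 differences given for these 19 are fitted values and not measured sizes. Over all 48, the adjusted p (limma) ran from 3.61e-07 (Nuf2) to 7.47e-05 (Racgap1). In bulk samples, fewer dividing cells and less of these RNAs per cell cannot be told apart.

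Markers of several cell types differed between the same 2 tumor pools. Of 10 tested markers of granulocyte precursors, 8 were called lower in the pool labelled HDC-KO, with a median difference of -3.31 over the 10. Their summed linear level was 6850 to 7140 against 15400, and that sum includes Igsf6, which was not called and had means of 12.53 and 12.39. Myeloperoxidase (Mpo), made at the promyelocyte stage, had pool means of 10.51 in wild-type tumor and 5.43 in the pool labelled HDC-KO. Of 13 markers of mature neutrophils none was called by limma, though 11 had an unadjusted p under 0.05, and their sum was 195000 to 198000 against 232000 to 238000. Of 15 tested epithelial markers 14 were called higher, with a summed level of 35500 to 37900 against 6400 to 6450, and the keratin Krt8 had means of 12.17 and 10.05. Of 11 monocyte and macrophage markers 9 were called higher, with a sum of 36900 to 38200 against 16600 to 17100. Smaller numbers were called among markers of B and plasma cells (2 of 5 higher), T and NK cells (4 higher and 1 lower of 6), erythroid cells (2 of 3 higher), and basophils, mast cells and eosinophils (2 higher and 1 lower of 7). In the last list Kit, called higher, had both tumor means under log2 5, taken as background (3.86 in wild type and 4.97), so its difference is a fitted value. All 9 stromal and endothelial markers had means under background in every pool. The part of these cell types in the mitosis gene differences was not tested.

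**Figure D2:**
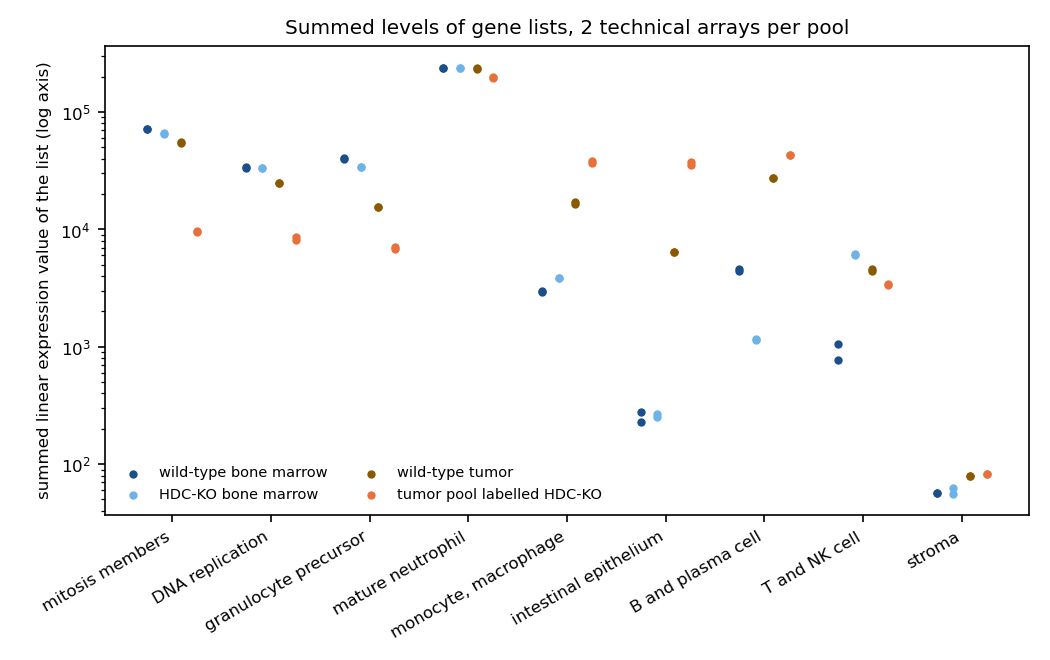
Summed linear expression values (y axis, log scale) of the mitosis genes and of the gene lists named on the x axis, 1 point per array coloured by pool. The mitosis genes sum to 54900 to 71400 on 6 arrays and to 9540 to 9770 on the 2 arrays of the tumor pool labelled HDC-KO, while the epithelial markers are highest there.

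The cyclins and kinases that start mitosis were all called lower in the pool labelled HDC-KO, 8 of 8 measured, with differences from -4.61 to -1.25. Cdk1, the kinase that drives entry into mitosis, read 10.57 and 10.51 in wild-type marrow, 10.46 and 10.44 in HDC-KO marrow, 10.09 and 10.17 in wild-type tumor and 6.46 and 6.35 in the tumor pool labelled HDC-KO. Its tumor groups did not overlap, and it fell 13.3-fold (-3.73 ± 0.061). Cyclin A2 (Ccna2), a partner of Cdk1, read 10.83 and 10.78 in wild-type marrow, 10.62 and 10.65 in HDC-KO marrow, 10.30 and 10.49 in wild-type tumor and 7.03 and 7.22 in the tumor pool labelled HDC-KO, and fell 9.63-fold. Plk1, polo-like kinase 1, which acts at centrosomes and kinetochores, read 9.06 and 9.0 in wild-type marrow, 8.60 and 8.62 in HDC-KO marrow, 8.41 and 8.18 in wild-type tumor and 3.44 and 3.93 in the tumor pool labelled HDC-KO. Both arrays of the last pool lay under background, so Plk1 fell at least 9.82-fold. Cks2, a small subunit of cyclin-dependent kinases, had the highest mean signal of the 49 probe sets and the smallest fold in this group, 2.38-fold. It read 12.79 and 12.74 in wild-type marrow, 12.64 and 12.62 in HDC-KO marrow, 12.20 and 12.20 in wild-type tumor and 10.91 and 10.99 in the tumor pool labelled HDC-KO, and stayed well above background on every array. Cyclin B2 (Ccnb2) fell 6.34-fold, Aurora A (Aurka), the centrosomal kinase, at least 9.1-fold, Melk at least 7.95-fold and Nek2, which separates centrosomes, at least 2.92-fold.

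The spindle checkpoint and the APC/C cofactors were called lower in 6 of 6 cases, from -4.61 to -2.46. Bub1, a checkpoint kinase at the kinetochore, read 10.11 and 10.11 in wild-type marrow, 10.04 and 10.00 in HDC-KO marrow, 9.63 and 9.61 in wild-type tumor and 5.48 and 5.65 in the tumor pool labelled HDC-KO. It fell 16.6-fold (-4.06 ± 0.067). Bub1b, which with Mad2 inhibits the APC/C, read 8.06 and 8.17 in wild-type marrow, 8.11 and 8.17 in HDC-KO marrow, 7.82 and 7.84 in wild-type tumor and 4.01 and 3.84 in the tumor pool labelled HDC-KO, and fell at least 7.12-fold. Ttk, the kinase that recruits checkpoint proteins, read 8.21 and 8.10 in wild-type marrow, 8.48 and 8.39 in HDC-KO marrow, 8.16 and 8.13 in wild-type tumor and 3.26 and 3.81 in the tumor pool labelled HDC-KO. For Ttk the wild-type tumor arrays lay between the values of the wild-type marrow arrays, and the fall in the pool labelled HDC-KO was at least 8.84-fold. Cdc20, the APC/C activator (5.51-fold), Ube2c, its ubiquitin-conjugating enzyme (6.53-fold), and Mad2l1 (5.63-fold) fell with all means above background.

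All 8 kinetochore genes were called lower, from -4.47 to -2.34. Cenpf, an outer kinetochore protein whose promoter is printed above, had the largest measured fold of the 49 genes, 22.1-fold (-4.47 ± 0.25). It read 9.99 and 10.04 in wild-type marrow, 9.82 and 9.88 in HDC-KO marrow, 9.73 and 9.77 in wild-type tumor and 4.86 and 5.71 in the tumor pool labelled HDC-KO. The last 2 values lay on either side of background and were 0.855 apart, the widest gap between technical arrays among the mitosis genes. The 4 subunits of the NDC80 complex, which binds microtubule ends, were all lower. Nuf2 read 10.73 and 10.75 in wild-type marrow, 10.74 and 10.63 in HDC-KO marrow, 10.42 and 10.42 in wild-type tumor and 5.96 and 6.10 in the tumor pool labelled HDC-KO, a 20.9-fold fall. Spc25 read 10.58 and 10.68 in wild-type marrow, 10.63 and 10.61 in HDC-KO marrow, 10.21 and 10.09 in wild-type tumor and 5.84 and 6.06 in the tumor pool labelled HDC-KO, an 18.4-fold fall. In both, the 6 arrays of the other pools lay within a range of less than 1 log2 unit. The other subunits, Ndc80 and Spc24, fell at least 5.82-fold and at least 7.26-fold. Cenpe, a kinetochore motor, fell at least 15.4-fold, Cenpk, of the inner kinetochore, at least 4.61-fold, and Cenpa, the centromeric histone H3 variant, 5.08-fold.

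The chromosomal passenger complex corrects faulty attachments and guides cytokinesis, and its 4 genes were called lower, from -4.11 to -1.75. Its kinase Aurkb read 9.72 and 9.82 in wild-type marrow, 9.54 and 9.63 in HDC-KO marrow, 9.26 and 9.33 in wild-type tumor and 5.36 and 5.01 in the tumor pool labelled HDC-KO, and fell 17.3-fold. Cdca8 (borealin) read 11.27 and 11.27 in wild-type marrow, 11.13 and 11.18 in HDC-KO marrow, 10.79 and 10.73 in wild-type tumor and 7.50 and 7.40 in the tumor pool labelled HDC-KO, a 9.93-fold fall (-3.31 ± 0.058). Birc5 (survivin) read 11.16 and 11.12 in wild-type marrow, 10.96 and 11.00 in HDC-KO marrow, 10.74 and 10.82 in wild-type tumor and 7.93 and 8.29 in the tumor pool labelled HDC-KO, and fell 6.37-fold. The scaffold Incenp fell 3.37-fold, from a mean of 11.57 to 9.82. For Aurkb, Cdca8 and Birc5 wild-type marrow was highest, then HDC-KO marrow and wild-type tumor, whereas Incenp was at 11.83 and 11.89 in wild-type marrow and at 11.89 on both HDC-KO marrow arrays.

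Of the 7 mitotic kinesins 6 were called lower. Kif11, the motor that pushes spindle poles apart, read 10.33 and 10.27 in wild-type marrow, 10.26 and 10.26 in HDC-KO marrow, 9.96 and 9.94 in wild-type tumor and 5.86 and 5.66 in the tumor pool labelled HDC-KO, an 18.3-fold fall. Kif2c, which depolymerises microtubules at centromeres, read 9.86 and 9.82 in wild-type marrow, 9.56 and 9.62 in HDC-KO marrow, 9.26 and 9.25 in wild-type tumor and 6.05 and 5.61 in the tumor pool labelled HDC-KO, and fell 10.7-fold. Kif20a, a cytokinesis motor, read 9.0 and 8.88 in wild-type marrow, 8.59 and 8.62 in HDC-KO marrow, 8.44 and 8.33 in wild-type tumor and 3.81 and 4.31 in the tumor pool labelled HDC-KO, and fell at least 10.4-fold. Kif23, the motor subunit of centralspindlin, was the 1 gene of the 49 not called. It read 10.23 and 10.28 in wild-type marrow, 9.97 and 10.13 in HDC-KO marrow, 10.00 and 10.14 in wild-type tumor and 9.73 and 9.49 in the tumor pool labelled HDC-KO. Its difference of -0.46 ± 0.10 had an adjusted p of 0.00693 (limma) and stayed under 2-fold, although its tumor groups did not overlap. Kif20b and Kif4 fell at least 7.26-fold and at least 6.93-fold, and Kif22, a chromosome-arm motor, 3.4-fold.

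All 8 spindle genes were called lower, from -4.39 to -2.56, and for 6 of them the mean in the pool labelled HDC-KO was under background. Aspm, a spindle pole protein, read 9.35 and 9.40 in wild-type marrow, 9.14 and 9.19 in HDC-KO marrow, 9.11 and 9.25 in wild-type tumor and 4.88 and 4.70 in the tumor pool labelled HDC-KO, a fall of at least 18.1-fold. Prc1, which bundles the central spindle, read 9.54 and 9.50 in wild-type marrow, 9.18 and 9.25 in HDC-KO marrow, 8.96 and 8.88 in wild-type tumor and 4.94 and 4.78 in the tumor pool labelled HDC-KO, a fall of at least 15.2-fold. Tpx2, the activator of Aurora A, read 9.04 and 9.16 in wild-type marrow, 8.98 and 8.87 in HDC-KO marrow, 8.84 and 8.72 in wild-type tumor and 5.51 and 4.73 in the tumor pool labelled HDC-KO, and fell 12.6-fold. The last 2 values of Tpx2 lay on either side of background. Dlgap5, which stabilises kinetochore fibres, had the lowest mean signal of the 49 probe sets and read 7.31 and 7.28 in wild-type marrow, 7.02 and 6.97 in HDC-KO marrow, 6.21 and 6.20 in wild-type tumor and 3.20 and 3.22 in the tumor pool labelled HDC-KO. Its bound was therefore low, at least 2.3-fold, although its fitted difference was -2.99 ± 0.049. Hmmr fell at least 11.7-fold, Ckap2l at least 5.87-fold, Ckap2 at least 5.77-fold and Nusap1, which bundles spindle microtubules, 8.31-fold.

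The 3 cytokinesis genes were called lower. Ect2, the exchange factor that activates RhoA at the cleavage furrow, read 10.02 and 10.06 in wild-type marrow, 9.84 and 9.83 in HDC-KO marrow, 9.77 and 9.60 in wild-type tumor and 6.13 and 5.73 in the tumor pool labelled HDC-KO, a 13.6-fold fall. Anillin (Anln), which anchors the contractile ring, read 10.83 and 10.84 in wild-type marrow, 10.93 and 10.89 in HDC-KO marrow, 10.19 and 10.23 in wild-type tumor and 6.46 and 6.89 in the tumor pool labelled HDC-KO, an 11.6-fold fall. Racgap1, the partner of Kif23 in centralspindlin, read 9.62 and 9.52 in wild-type marrow, 9.19 and 9.30 in HDC-KO marrow, 8.85 and 8.89 in wild-type tumor and 6.39 and 6.98 in the tumor pool labelled HDC-KO, and fell 4.54-fold (-2.18 ± 0.18). For Ect2 and Racgap1 wild-type marrow was the highest pool, for Anln HDC-KO marrow. The order for Racgap1 depended on its probe set. Another one had means of 8.115 in wild-type marrow, 8.053 in HDC-KO marrow and 8.182 in wild-type tumor.

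The remaining 5 genes were all called lower, from -4.34 to -2.33. Depdc1b read 9.78 and 9.87 in wild-type marrow, 10.00 and 10.09 in HDC-KO marrow, 9.97 and 9.91 in wild-type tumor and 5.88 and 5.32 in the tumor pool labelled HDC-KO, a 20.2-fold fall, and its HDC-KO marrow arrays were the highest of the 8. Cdca3 read 11.00 and 10.99 in wild-type marrow, 10.62 and 10.64 in HDC-KO marrow, 10.29 and 10.25 in wild-type tumor and 6.93 and 6.55 in the tumor pool labelled HDC-KO, an 11.5-fold fall. Cdca5 (sororin), which protects sister chromatid cohesion, read 10.45 and 10.42 in wild-type marrow, 10.37 and 10.33 in HDC-KO marrow, 9.85 and 9.75 in wild-type tumor and 6.91 and 6.30 in the tumor pool labelled HDC-KO, and fell 9.15-fold. Topoisomerase IIα (Top2a), which untangles sister chromatids, fell 5.92-fold and the proliferation marker Mki67 5.02-fold, both to means above background.

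**Figure D3:**
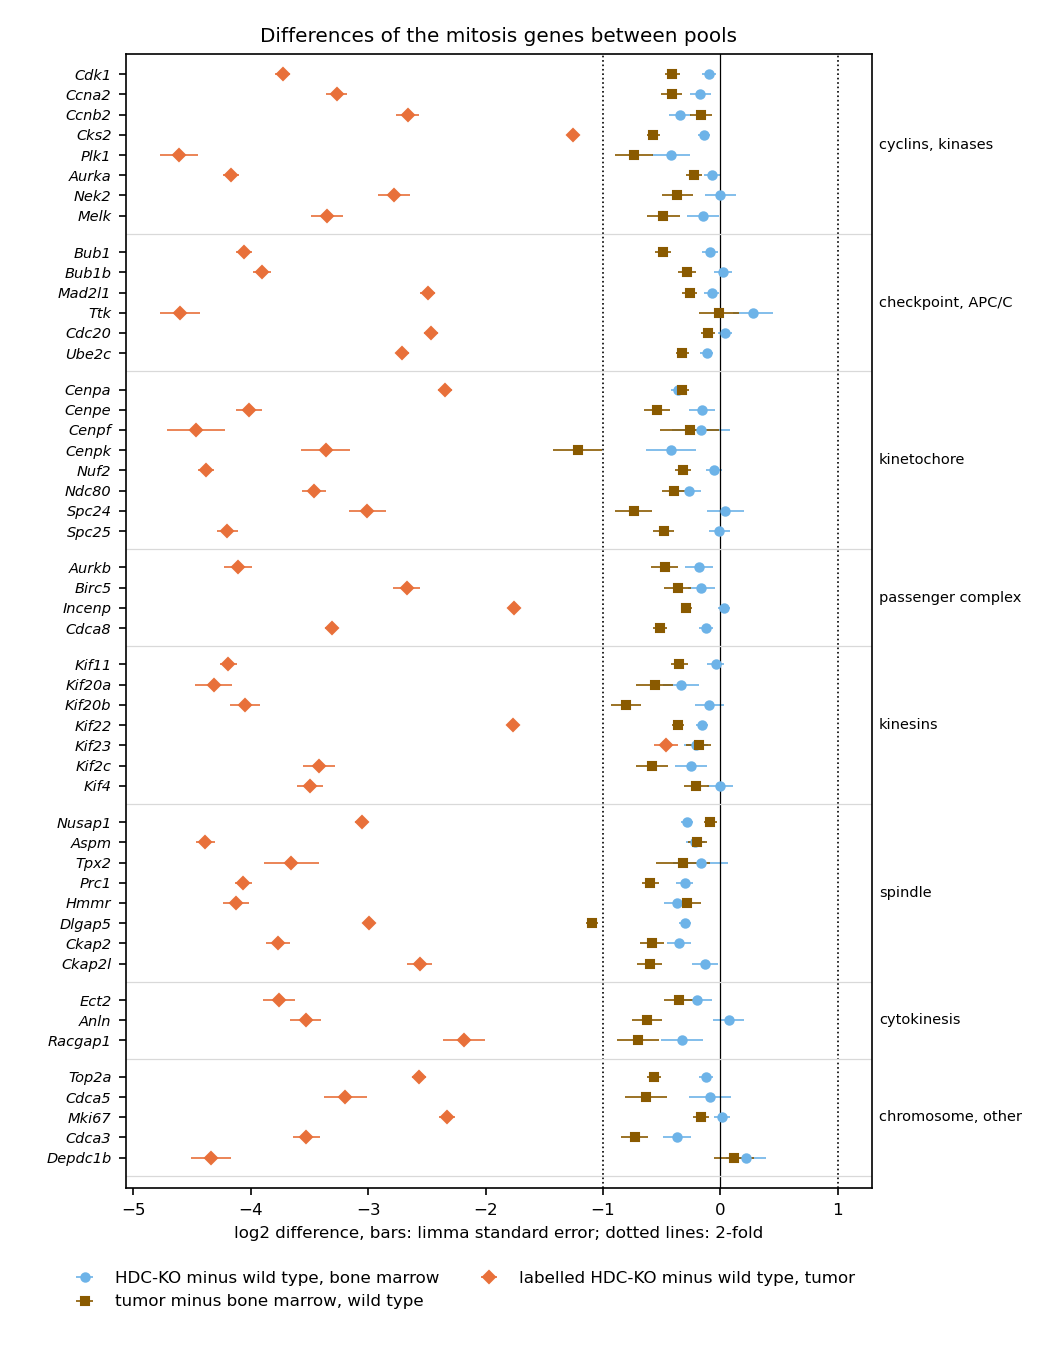
Log2 differences between pools (x axis; bars are limma standard errors, dotted lines mark 2-fold) for the 49 mitosis genes by role (y axis), coloured by comparison. The differences run from -0.42 to 0.28 between the marrow pools and from -4.61 to -0.46 between the tumor pool labelled HDC-KO and wild-type tumor, the lowest being fitted values of genes under background in the labelled pool.

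In marrow, where Hdc was lower in the HDC-KO pool, no mitosis gene was called in either direction by limma, beside 3.82% of all tested genes called, 2.02% lower and 1.8% higher. The 49 differences ran from -0.42 (Plk1 and Cenpk) to 0.28 (Ttk) with a median of -0.15, beside a median of 0.00 over all tested genes. An unadjusted p under 0.05 (limma) was reached by 13 of the 49 and by 2866 of all 8174 tested genes. Of the 49, 40 were below zero and 9 above, beside 4106 below and 4068 above among all 8174 tested genes. Both wild-type marrow arrays lay above both HDC-KO arrays for 35 genes and below them for 4, and 34.3% of all tested genes lay above in the same way. Of the 49, 5 had an adjusted p under 0.05 (limma) without reaching 2-fold: Cenpa (-0.36 ± 0.062), Ccnb2 (-0.34 ± 0.094), Dlgap5 (-0.30 ± 0.049), Prc1 (-0.30 ± 0.072) and Nusap1 (-0.28 ± 0.054). These 5 were named after their values were seen. Over all 8174 tested genes, 1734 had an adjusted p under 0.05 (limma), whatever the size of their difference. Among the marker lists, none of the 10 granulocyte precursor markers was called (5 at an unadjusted p under 0.05) and none of the 13 mature neutrophil markers (5 likewise), while calls in the other lists went both ways. Of 11 monocyte and macrophage markers 3 were called higher and 1 lower, of 6 T and NK cell markers 2 higher and 1 lower, and of 5 B and plasma cell markers 1 higher and 3 lower. Of 7 markers of basophils, mast cells and eosinophils 4 were called lower, of 3 erythroid markers 1, and of 15 epithelial markers 1. Some of these calls compare wild-type and HDC-KO marrow means that both lay under background. They are Mertk (3.14 and 4.22) of the macrophage list, Gzma (3.36 and 4.38) of the T and NK list and the epithelial Cdh1 (3.99 and 2.64). Their differences are fitted values and not measured sizes. The part of the marker lists in the mitosis gene differences was not tested.

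In wild-type tumor cells the mitosis genes stood slightly under their marrow level. Of the 49, 2 were called lower in wild-type tumor than in wild-type marrow, where 16.4% of all tested genes were called, 4.81% lower and 11.6% higher. The median difference was -0.39, beside -0.03 over all tested genes. Of the 49 genes, 48 were below zero, as were 4372 of all 8174 tested genes. Cenpk read 8.41 and 8.43 in wild-type marrow, 8.03 and 7.97 in HDC-KO marrow, 7.11 and 7.31 in wild-type tumor and 3.50 and 4.19 in the tumor pool labelled HDC-KO, 2.32-fold lower in wild-type tumor than in wild-type marrow (limma, adjusted p = 0.00356), and was named after its value was seen. Dlgap5, given above, was 2.13-fold lower (limma, adjusted p = 9.05e-06). Both wild-type marrow arrays lay above both wild-type tumor arrays for 46 genes, all but Ttk, Kif4 and Depdc1b, against 44.4% of all tested genes. In the same comparison 6 of 10 granulocyte precursor markers were called lower, all 11 monocyte and macrophage and all 15 epithelial markers were called higher, and no mature neutrophil marker was called (limma; 6 at an unadjusted p under 0.05). Of 5 B and plasma cell markers 4 were called higher, of 6 T and NK cell markers 2 higher and 1 lower, of 3 erythroid markers 1 higher, and of 7 markers of basophils, mast cells and eosinophils 1 higher and 5 lower. The epithelial Cdx2 (2.28 in marrow and 3.28 in tumor) and Ccr3 of the last list (2.18 and 3.23) had both means under background. Their differences are fitted values and not measured sizes. The part of the marker lists was not tested either.

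The comparison of the tumor pool labelled HDC-KO with HDC-KO marrow shares a pool with the genotype comparisons. Here 48 genes were called lower and Kif23 was not, at a median of -3.79 (-3.43 with means raised to 5), beside 36.5% of all tested genes called, 15.4% lower and 21.1% higher, and a median of -0.02. In the same comparison 9 of 10 granulocyte precursor markers were called lower, and all 15 epithelial, all 11 monocyte and macrophage and all 5 B and plasma cell markers were called higher. Calls among T and NK cell markers (4 higher and 2 lower of 6), mature neutrophil markers (2 higher and 2 lower of 13), basophil, mast cell and eosinophil markers (1 higher and 3 lower of 7) and erythroid markers (2 higher of 3) were mixed or few. The part of these markers was not tested. Cdk1 was 16.5-fold lower, Depdc1b 21.8-fold lower and Plk1 at least 12.2-fold lower. All 49 genes lay lower on both tumor arrays than on both marrow arrays, as did 46.6% of all tested genes. The difference between the genotype effects in tumor and marrow was also tested itself, and 48 genes were called, with a median of -3.20 (-2.86 with values under 5 raised to 5), beside 28.5% of all tested genes called, 11.7% in that direction and 16.8% in the other. It was -3.64 ± 0.087 for Cdk1 and, for Kif23, -0.25 ± 0.15 with an adjusted p of 0.169 (limma).

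The array carries 111 probe sets for these genes, and 33 of the genes have more than 1. Of the 62 probe sets not used above, 29 in 24 genes were above background, that is, on at least 2 arrays. Of these, 27 were called lower in the tumor pool labelled HDC-KO. Among the 27, probe sets of Nek2 (4.82 and 3.18), Ttk (4.90 and 3.17) and Kif11 (4.84 and 3.21) had both tumor means under background. Their differences are fitted values and not measured sizes. A second probe set of Kif23 was among the 27, with means of 8.03 in wild-type tumor and 6.91 in the pool labelled HDC-KO (-1.12, limma adjusted p = 0.0002), so the absent call of Kif23 depended on the choice of its probe set. For Kif22, whose reported difference was -1.77, the other 2 probe sets gave -3.92 and -3.87. The first of these is a fitted value, with a mean of 3.74 in the pool labelled HDC-KO. The 2 not called were a second probe set of Anln (-0.66), with a wild-type tumor mean of 4.57, and of Bub1 (-0.42), with 3.71. That Bub1 probe set had a mean of 6.01 in wild-type marrow and 3.07, under background, in HDC-KO marrow, and it was the only 1 of the 29 called in the marrow comparison (fitted difference -2.94, limma adjusted p = 3.93e-05), where the reported probe set of Bub1 differed by -0.09. The reason for this disagreement was not tested. In wild-type tumor against wild-type marrow, 4 of the 29 were called lower and 25 were not called. The 4 belonged to Bub1 (fitted difference -2.30), Tpx2 (-1.28), Incenp (-1.12) and Top2a (-1.04), whose reported probe sets were not called.

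**Figure D4:**
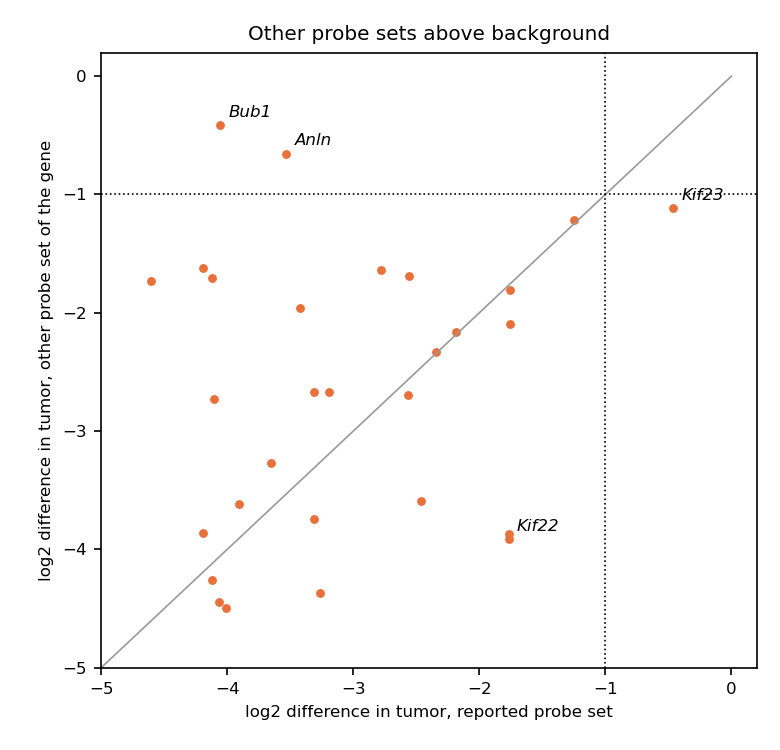
Log2 difference in tumors, pool labelled HDC-KO minus wild type, of each further probe set above background (y axis) against the reported probe set of its gene (x axis), with 2-fold as dotted lines and equality as a grey line. Of 29 points, 27 lie below 2-fold on the y axis, and those of Bub1 and Anln lie above it. Differences with a tumor mean under background are fitted values.

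Other genes of the cell cycle were read from 3 further lists. Between the tumor pools, 10.5% of all tested genes were called lower in the pool labelled HDC-KO and 15.5% higher. Of 100 further mitosis genes 88 were tested, and 59 were called lower and 1 higher in the tumor pool labelled HDC-KO, with a median of -1.66, or -1.11 with means raised to 5. Among the 59, Kif18a, Kifc1, Ska3 and Pimreg had both tumor means under background, so their differences are fitted values and not measured sizes. Sgo1 (shugoshin), which protects centromeric cohesion, read 8.84 and 8.85 on the wild-type tumor arrays and 4.34 and 4.21 on the others, a fall of at least 14.4-fold. Cdkn3 fell 15.2-fold, the kinase gene Pbk 13.7-fold, the condensin subunit gene Ncapg at least 13.6-fold and Trip13, which acts on the checkpoint protein Mad2, 13.3-fold. Numa1, a spindle pole organiser, went the other way, with 7.29 and 7.34 in wild-type tumor and 9.05 and 9.04 in the tumor pool labelled HDC-KO, 3.32-fold higher. Its low value was that of wild-type tumor, since the marrow pools had means of 9.18 and 9.24. In marrow 1 of the 88 was called, Cdc25c, a phosphatase that activates Cdk1. Its marrow means were 5.85 in wild type and 4.74 in HDC-KO, the latter under background, so its fitted difference of -1.11 is not a measured size.

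Of 31 tested DNA replication genes 27 were called lower in the tumor pool labelled HDC-KO and none higher, with a median of -2.12, or -2.0 with means raised. Uhrf1, which recruits maintenance DNA methylation, read 9.77 and 9.55 in wild-type tumor and 5.73 and 6.34 in the tumor pool labelled HDC-KO, a 12.3-fold fall. Prim1, a primase subunit, fell 7.59-fold, the licensing factor Cdc6 7.99-fold, the DNA ligase Lig1 at least 8.07-fold and the helicase subunit Mcm2 at least 7.44-fold. In marrow none of the 31 was called by limma, with 4 at an unadjusted p under 0.05.

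The last list held regulators of the cycle. Of 33 tested, 13 were called lower and 2 higher in the tumor pool labelled HDC-KO, with a median of -0.45, or -0.40 with means raised. Those lower included the repressors E2f7 (at least 8.78-fold) and E2f8 (7.35-fold), cyclin E2 (Ccne2, 11.1-fold), Cdk2 (4.48-fold) and the inhibitor Cdkn2c (4.4-fold). Cyclin D2 (Ccnd2), a partner of Cdk4 and Cdk6 in G1, was 5.59-fold higher, with 6.98 and 7.02 in wild-type tumor and 9.57 and 9.40 in the pool labelled HDC-KO. E2f5 was at least 2.24-fold higher. Ccnd2 was also the 1 regulator called in marrow (-1.22, lower in the HDC-KO pool), a call lost when any 1 of 3 marrow arrays was left out.

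**Figure D5:**
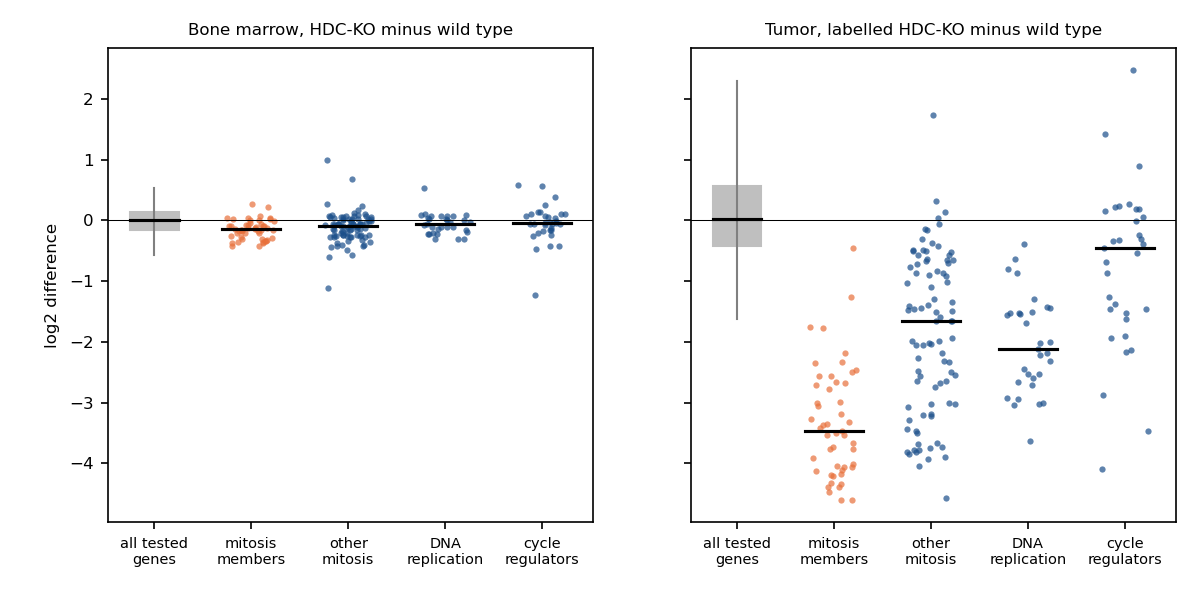
Log2 differences (y axis) of single genes (points) in each list on the x axis, in marrow (left) and tumors (right), with the median as a bar. The grey box and line give the middle 50% and 90% of all tested genes, and in tumors the mitosis genes have a median of -3.46 and the regulators a median of -0.45.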

How the data were processed

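Total RNA of each pool was labelled with biotin and hybridised to 2 Affymetrix mouse arrays of 45101 probe sets. The authors deposited log2 expression values, computed with GCRMA per the submitters' processing notes, of a version the sources used here do not give. GCRMA normalizes all arrays together and lowers dim signals steeply, so values under log2 5 were taken as background and folds against them as bounds. In the platform annotation, 34958 probe sets carry 1 gene symbol, 932 several and 9211 none. A gene was tested when at least 2 arrays reached log2 5. All 8174 such genes were fitted over the 8 arrays with limma 3.58.1 (R 4.3.3, lmFit and eBayes, 4 residual degrees of freedom) for 5 contrasts, and genes were called at 2-fold or more (1 on the log2 scale) with p adjusted after Benjamini and Hochberg under 0.05. The fit was tested on simulated data. The number of arrays, 2 technical ones a pool, limits the precision.

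The members, roles and lists (other mitosis genes, DNA replication, cycle regulators, and markers of granulocyte precursors, mature neutrophils, monocytes and macrophages, erythroid cells, B and plasma cells, T and NK cells, basophils with mast cells and eosinophils, epithelium, and stroma) were chosen with earlier results of these data known. Values per array are given, in each role, for the 3 genes with the largest tumor difference after means were raised to log2 5, for genes not called there, and for the highest and lowest mean; up to 5 genes a direction are named from each other list. Alternatives covered the filter, low values, normalization, probe set choice, arrays in the fit, variance model, replicate block and threshold. Motifs were counted with Python 3.11.15 in RefSeq promoter windows.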

Additional observations from a re-analysis of the deposited data

Results flagged for a closer look

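For 48 of the 49 mitosis genes, all but Kif23, the genotype effects in tumors and marrow were called different by the limma interaction term. By the same rule 28.5% of all tested genes were called, 11.7% below zero, as all 48 were, and 16.8% above. With 1 pool a group, this test measures technical spread only. The difference, tumor effect minus marrow effect on the log2 scale, rests on the label of the tumor pool labelled HDC-KO. For Plk1, Ttk, Bub1b, Kif20a, Aspm, Prc1 and Dlgap5 the mean in that pool lay under background, so the values given next for them are fitted differences and not measured sizes. Among cyclins and kinases it was -3.64 for Cdk1, -4.19 for Plk1, -3.10 for Ccna2 and -1.11 for Cks2. Among checkpoint genes it was -3.97 for Bub1, -4.88 for Ttk and -3.93 for Bub1b. Among kinetochore genes it was -4.30 for Cenpf, -4.33 for Nuf2 and -4.19 for Spc25. In the passenger complex it was -3.93 for Aurkb, -3.19 for Cdca8 and -2.51 for Birc5. For the kinesins it was -4.15 for Kif11, -3.17 for Kif2c and -3.98 for Kif20a. Spindle genes gave -4.18 for Aspm, -3.76 for Prc1, -3.49 for Tpx2 and -2.69 for Dlgap5. Cytokinesis genes gave -3.56 for Ect2, -3.60 for Anln and -1.85 for Racgap1, and the remaining genes -4.56 for Depdc1b, -3.16 for Cdca3 and -3.11 for Cdca5. With values under 5 raised to 5 before the fit, the difference was -2.88 for Plk1, -3.42 for Ttk, -2.86 for Bub1b, -3.05 for Kif20a, -3.97 for Aspm, -3.62 for Prc1 and -0.90 for Dlgap5, which was then no longer called.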

How the results depend on the processing

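Leaving out each of the 8 arrays in turn left the counts of mitosis genes called lower at 0 to 0 in marrow, 48 to 48 in tumors, 2 to 2 for wild-type tumor against marrow, 48 to 48 for the tumor pool labelled HDC-KO against HDC-KO marrow and 48 to 48 for the difference of effects. The other alternatives gave 44 to 49 in tumors, 44 to 49 for that pool against HDC-KO marrow and 42 to 48 for the difference of effects, and no call reversed under any alternative run. With no minimum difference, 5 mitosis genes were called lower in marrow and 35 in wild-type tumor against marrow. The calls over all tested genes then rose from 312 to 1734 in marrow, from 2122 to 5948 in tumors, from 1338 to 4616 for wild-type tumor against marrow, from 2986 to 6594 for the tumor pool labelled HDC-KO against HDC-KO marrow, and from 2330 to 5379 for the difference of effects. With the mean of a gene's probe sets, 1 gene was called in marrow (Bub1, -1.51), and the difference of effects was no longer called for Bub1 (-0.72) and Cenpk (-0.86), while in wild-type tumor against marrow Dlgap5 (-0.97) lost its call and Bub1 (-1.39) gained a call. With values under 5 raised to 5, the difference of effects of Dlgap5 (-0.90) was no longer called. Some genes could not be tested under a setting: Nek2 with a filter at log2 7, Aspm, Cdca3, Kif20b and Nek2 with the mean of probe sets, and Aurkb without the probe sets marked as shared or cross-hybridising. Of 4740 values of single named genes under the alternatives, 4674 stayed on their side of the threshold (20 of them, called in neither setting, changed sign), 26 lost a call and 40 gained a call. Same-numbered arrays of different pools shared only a number (correlations of their deviations from -0.015 to 0.058 over 6 pairs of pools), and the replicate block left the counts at 0, 48, 2, 48 and 48, with 1339 against 1338 genes called in wild-type tumor against marrow. With 1 pool a group, differences between mice cannot be told apart from those between genotypes.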

Other observations

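Complexes within the list of further mitosis genes, chosen after their values were seen, differed in how many of their subunits were called lower in the tumor pool labelled HDC-KO. Of all tested genes 10.5% were called lower in this comparison. Of 8 condensin genes, which compact mitotic chromosomes, 7 were called lower, with a median of -2.51 on the log2 scale. Ncaph2 (-0.57) stayed under 2-fold and was not called. Ncapd2 (4.83) and Ncapg (4.96) had means under background in that pool, so their differences are fitted values and not measured sizes. Of 11 core subunits of the APC/C, 1 was called (Cdc23, -1.09), and the median was -0.49. Of those not called, Anapc1, Anapc10 and Cdc16 had adjusted p-values of 0.596, 0.126 and 0.277 (limma). The others had one under 0.05 and were lower by less than 2-fold. None of the 3 cohesin genes tested, Smc1a, Smc3 and Rad21, was called, since their differences, from -0.91 to -0.49, stayed under 2-fold. Their adjusted p-values ran from 1.75e-05 (Rad21) to 0.000535 (Smc3) by limma. The cohesin and APC/C subunits are also used outside mitosis, in chromosome organisation and in G1. Whether this bears on the differences between these complexes was not tested.

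The inhibitor of cyclin-dependent kinases Cdkn1a (p21) read 5.05 and 4.35 in wild-type marrow, 4.81 and 5.11 in HDC-KO marrow, 9.87 and 9.95 in wild-type tumor, and 10.14 and 10.22 in the pool labelled HDC-KO. It was thus high in both tumor pools, and its difference between them was 0.27. The securin gene Pttg1 had a pattern of its own, with 10.88 and 10.84 in wild-type marrow, 11.84 and 11.85 in HDC-KO marrow, 11.82 and 11.89 in wild-type tumor, and 10.53 and 10.60 in the pool labelled HDC-KO. Its marrow difference of 0.99 stayed just under 2-fold.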
